A study of Mus musculus with 9 samples.

Results

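The genes described here are 10 members of the transforming growth factor beta (TGF-β) pathway, measured by RNA sequencing in the submandibular gland (SMG), a major salivary gland, of male mice. They were picked by gene symbol from the 48733 rows of the count table, and the list of symbols was chosen with earlier results of these data known. They are the ligands Tgfb1, Tgfb2 and Tgfb3, the latent ligand binding protein Ltbp1, the receptors Tgfbr1, Tgfbr2 and Tgfbr3, and the signal transducers Smad2, Smad3 and Smad7. All 10 were found and all 10 were abundant enough to be tested, among 13842 genes tested. The samples were 4 wildtype (WT) glands and 5 glands from a double knockout (DKO) of Hs3st3a1 and Hs3st3b1, 2 enzymes that add 3-O-sulfate to heparan sulfate chains. The DKO combines germline alleles, so the altered alleles are in every cell of the animal, but no enzyme was measured here. The age of the mice is not in the labels, and the study's text calls the glands adult. Each library came from a whole gland, so fewer cells of a type and less RNA per cell cannot be told apart in any value below.

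TGF-β ligands are made as precursors and are held in the extracellular matrix in a latent complex, in which Ltbp1 ties the ligand to matrix fibres. Once released, a ligand binds the type II receptor Tgfbr2, which activates the type I receptor Tgfbr1, and that kinase phosphorylates Smad2 and Smad3. The co-receptor Tgfbr3 (betaglycan) carries heparan sulfate chains and presents Tgfb2 in particular, which binds Tgfbr2 weakly by itself. Smad7, itself induced by the pathway, blocks the type I receptor.

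The libraries held 17053747 to 37870519 counts, with a median of 22301326 in WT and 26682224 in DKO. Hs3st3a1 had 3 to 14 counts in the WT libraries and 0 in every DKO library, and Hs3st3b1 had 67 to 216 counts in WT and 7 to 45 in DKO. Reads of Hs3st3b1 thus remained in every DKO library, and their source was not tested. Levels are counts per 1000000 library counts (CPM), scaled with trimmed mean of M values (TMM) factors that correct for differences in composition. Fold changes and adjusted p-values come from a quasi-likelihood count model in edgeR, adjusted by the Benjamini-Hochberg method across the 13842 genes. The labels do not say that the libraries within a group came from separate litters or days, and p-values measure the spread between these glands.

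The proximal promoters of 2 ligands are shown because they belong to the member that fell in the DKO and to its paralog with the lowest level. Promoters of 6 of the 10 members were used here, from a RefSeq promoter table (GRCm38.p6). Tgfb3 and Tgfbr3 had no entry in it, and Smad2 and Smad7 were left out by a filter on genome position. Each sequence is the 250 bases before the annotated start, 5′ to 3′ on the gene's strand, and capitals mark matches to the motifs searched on both strands: the TATA box written as TATAAA, the short form of the cAMP response element written as TGACGT, the Sp1 box written as GGGCGG, the E-box written as CACGTG, the AP-1 site written as TGANTCA, the SMAD box written as CAGACA, and the CArG box. The Tgfb2 sequence lies at chr1:186705990-186706239 on the minus strand and the Tgfb1 sequence at chr7:25686752-25687001 on the plus strand.
Tgfb2: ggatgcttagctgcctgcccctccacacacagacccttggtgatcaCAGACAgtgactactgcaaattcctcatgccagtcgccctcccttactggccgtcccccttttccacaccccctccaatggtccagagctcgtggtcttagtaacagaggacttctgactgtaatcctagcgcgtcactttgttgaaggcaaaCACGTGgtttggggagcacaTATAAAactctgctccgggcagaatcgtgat
Tgfb1: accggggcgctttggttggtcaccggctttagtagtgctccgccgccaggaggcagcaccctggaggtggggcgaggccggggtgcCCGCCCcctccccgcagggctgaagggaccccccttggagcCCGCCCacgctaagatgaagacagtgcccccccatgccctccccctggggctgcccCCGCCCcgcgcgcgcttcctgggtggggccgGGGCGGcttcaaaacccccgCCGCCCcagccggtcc
The Tgfb2 promoter held 1 TATA box at 31 bases, 1 E-box at 51 bases and 1 SMAD box at 204 bases before the start, each position being that of the first base of the match, with no overlap between them. The Tgfb1 promoter held 5 Sp1 boxes and none of the other motifs. Its GC content was 75.2% against 53.6% in the Tgfb2 promoter, where the median over 32536 RefSeq promoters was 52.4%. Over those promoters, a TATA box was found in 12.3%, an E-box in 6.04%, a SMAD box in 16.99% and an Sp1 box in 32.97%. Those matches describe the letters only, since no binding was measured in these libraries.

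The first question was whether the ligands differed between the genotypes. Tgfb2 fell in the DKO to 0.488 of its WT level, and none of the other 9 members passed the test. That is 1 of 10 members, lower in the DKO, against 0.629% of all genes tested that passed in either direction and 0.462% that passed as lower. Because the members were chosen with earlier results known, the 1 of 10 is not an unbiased count. Tgfb2 was also the ligand with the highest level per length in every library of both genotypes.

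Tgfb2 (ENSMUSG00000039239, chr1:186622792-186705989, minus strand, GRCm38) encodes the isoform that depends most on the co-receptor for receptor binding. Its levels in the WT glands were 69.5, 55.8, 79.3 and 55.3 CPM in replicates 1 to 4. In the DKO glands they were 27.6, 24.0, 30.7, 40.0 and 36.4 CPM in replicates 1 to 5. The highest DKO gland lay below the lowest WT gland, so the genotypes did not overlap, a separation found in the lower direction for 3.51% of all genes tested. Mean levels were 65.0 ± 11.6 CPM over the 4 WT glands and 31.7 ± 6.49 CPM over the 5 DKO glands (SD). The log2 fold change was -1.04 (SE 0.16, 95% confidence interval -1.39 to -0.68), with an adjusted p of 0.0478 in edgeR, 9.44e-06 in DESeq2 and 0.0453 in limma-voom, which called 4.55% and 1.07% of the genes they tested. These values rest on 502 to 3589 counts per library, so that counting error was small beside the spread between glands. An exact two-sided permutation test over the libraries gave p = 0.00794, the smallest that this design allows. The call in edgeR lay near the threshold: it was kept without WT replicate 2 (adjusted p = 0.0212) and without DKO replicate 4 (0.0149), and lost without any of the other 7 libraries. The edgeR adjusted p was 0.198, 0.171 and 0.103 without WT replicates 1, 3 and 4, and 0.0823, 0.119, 0.0522 and 0.0969 without DKO replicates 1, 2, 3 and 5. The log2 fold change stayed between -1.14 and -0.93 in those 9 fits. In the 7 fits that lost the call, edgeR called only 0 to 2 of all the genes tested. An antisense gene, Gm29491, shares 124 of the 5791 exon bases of Tgfb2 and had 3 to 27 counts; the kit kept no strand, so reads in the shared bases cannot be assigned to either gene.

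Tgfb3 (ENSMUSG00000021253, chr12:86056745-86079041, minus strand), the paralog best known for palate and lung development, had 15.4, 12.9, 17.6 and 12.2 CPM in the 4 WT glands. In the 5 DKO glands it had 10.1, 12.2, 8.25, 11.7 and 8.12 CPM. All 5 DKO glands were below all 4 WT glands, but only just, since WT replicate 4 (12.19 CPM) and DKO replicate 2 (12.17 CPM) nearly met. The means were 14.5 ± 2.48 CPM (SD, n = 4) and 10.1 ± 1.89 CPM (SD, n = 5), and the log2 fold change was -0.52 (95% confidence interval -0.88 to -0.17). The adjusted p was 0.151 in edgeR and 0.0671 in DESeq2, and Tgfb3 was not called by either. Of its 3383 exon bases, 163 are shared with Gm37804 and 257 with Gm48008, both on the opposite strand. Gm37804 had 0 counts in every library and no counts were given for Gm48008, so reads of Tgfb3 in the shared bases cannot be told apart from theirs.

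Tgfb1 (ENSMUSG00000002603, chr7:25687002-25705077, plus strand), the main ligand of immune cells and platelets, was low, with 6 to 23 counts per library. Its levels were 0.937, 0.727, 0.464 and 0.816 CPM in the WT glands. In the DKO glands they were 0.674, 0.535, 0.504, 0.751 and 0.435 CPM. The genotypes overlapped, and the log2 fold change was -0.29 with a 95% confidence interval of -0.95 to 0.37 (adjusted p = 0.730 in edgeR), which leaves room for changes in either direction.

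**Figure D1:**
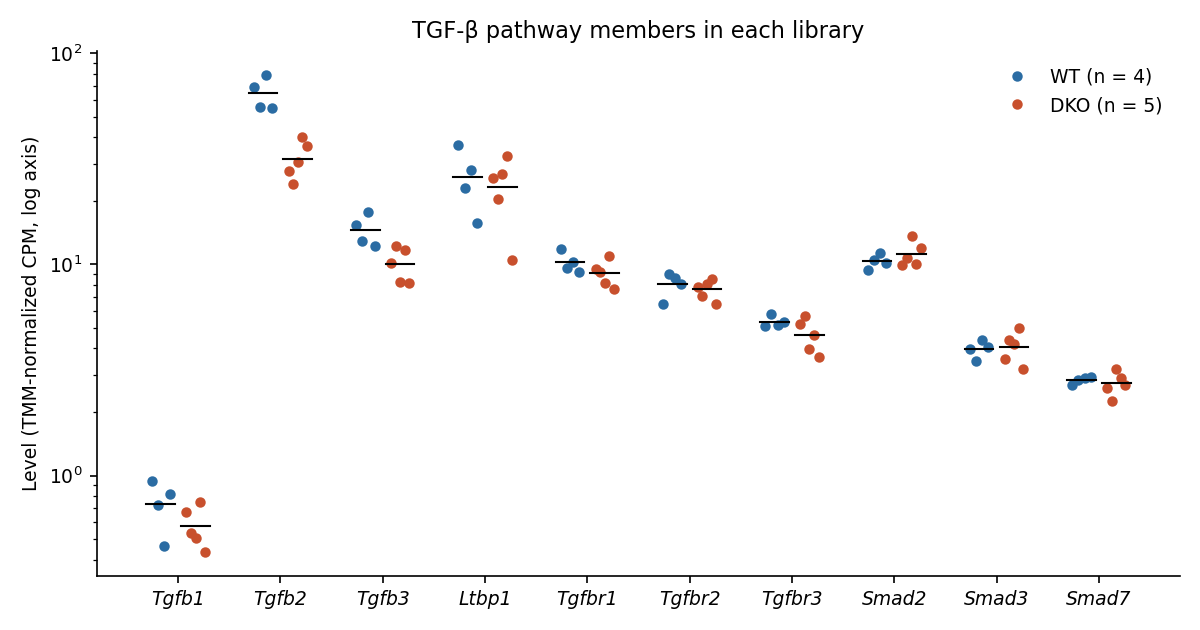
Level of each of the 10 genes in each library, in TMM-normalized CPM on a log axis, for WT (blue, n = 4) and DKO (red, n = 5). Each point is one gland and each black line is the group mean; only for Tgfb2 and Tgfb3 do all 5 DKO points lie below all 4 WT points.

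Ltbp1 ties latent ligand to fibrillin and fibronectin fibres. It had 36.7, 22.9, 28.0 and 15.8 CPM in the WT glands. The DKO glands had 25.8, 20.3, 26.9, 32.6 and 10.5 CPM. The range within each genotype was wide and the ranges overlapped, with coefficients of variation of 34.0% in WT and 36.0% in DKO. The log2 fold change was -0.15 (95% confidence interval -0.79 to 0.49, adjusted p = 0.876 in edgeR), and its sign turned when WT replicate 1 (0.06) or DKO replicate 5 (0.03) was left out.

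The 3 receptor genes overlapped between the genotypes and none passed the test. Tgfbr1, the type I receptor kinase, had 11.9, 9.60, 10.3 and 9.19 CPM in WT and 9.52, 9.17, 8.20, 10.9 and 7.62 CPM in DKO. The log2 fold change of Tgfbr1 was -0.17 (95% confidence interval -0.46 to 0.13, adjusted p = 0.644 in edgeR), and 3 of the 5 DKO glands lay below all WT glands. Tgfbr2, the ligand-binding type II receptor, had 6.47, 9.02, 8.64 and 8.07 CPM in WT and 7.85, 7.12, 8.11, 8.54 and 6.53 CPM in DKO. Every DKO gland fell within the WT range of Tgfbr2, whose log2 fold change was -0.08 (95% confidence interval -0.37 to 0.22, adjusted p = 0.857 in edgeR). Tgfbr3, the heparan sulfate bearing co-receptor, had 5.09, 5.81, 5.15 and 5.32 CPM in WT and 5.22, 5.72, 3.99, 4.62 and 3.63 CPM in DKO. For Tgfbr3 the WT glands were close together (coefficient of variation 6.14%) and the DKO glands more spread (18.5%), with a log2 fold change of -0.20 (95% confidence interval -0.54 to 0.14, adjusted p = 0.636 in edgeR).

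The SMAD genes overlapped as well. Smad2, a receptor-activated transducer, had 9.42, 10.5, 11.4 and 10.1 CPM in WT and 9.99, 10.7, 13.7, 10 and 11.9 CPM in DKO. Its log2 fold change was 0.12 (95% confidence interval -0.16 to 0.39, adjusted p = 0.750 in edgeR). Smad3, the other receptor-activated transducer, had 3.97, 3.48, 4.40 and 4.08 CPM in WT and 3.57, 4.40, 4.22, 4.98 and 3.19 CPM in DKO. Its log2 fold change was 0.04 (95% confidence interval -0.32 to 0.39, adjusted p = 0.954 in edgeR), and those of Smad2 and Smad3 had the opposite sign, -0.20 and -0.25, when library totals alone were used for scaling, which moved the median of all genes tested from 0.01 to -0.28. Smad7, the inhibitory SMAD, had 2.68, 2.83, 2.90 and 2.92 CPM in WT, the narrowest spread of the 10 genes (coefficient of variation 3.82%). It had 2.61, 2.26, 3.21, 2.89 and 2.68 CPM in DKO, a range that contained all 4 WT values, and its log2 fold change was -0.05 (95% confidence interval -0.40 to 0.30, adjusted p = 0.923 in edgeR). The intervals of the 3 receptors and 3 SMADs all lay between -0.54 and 0.39 and thus did not reach the fitted change of Tgfb2.

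**Figure D2:**
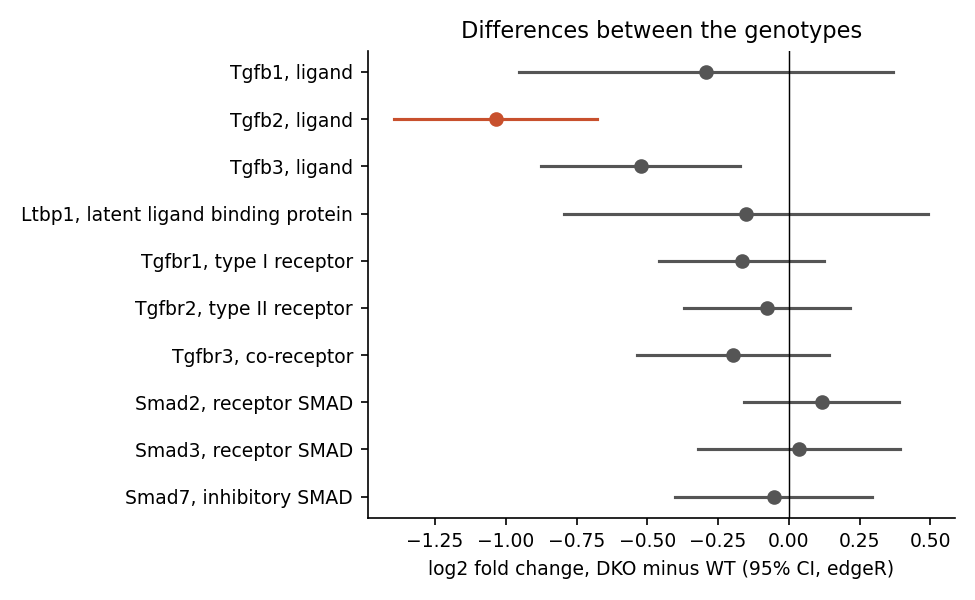
Log2 fold change, DKO minus WT, of each gene with its 95% confidence interval from edgeR (4 WT and 5 DKO glands). Red marks the only gene with an adjusted p under 0.05, Tgfb2 at -1.04; the interval of Tgfb3 (-0.88 to -0.17) also excludes 0, while those of the other 8 include it.

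Since a gene that passes and one that does not may still differ little from each other, the level of Tgfb2 was next set against each other member within the same library. The quantity tested was the log2 ratio of Tgfb2 to the other gene, with 0.5 CPM added to both, by exact two-sided permutation over the libraries, with Benjamini-Hochberg adjustment over the 9 ratios. Tgfb2 fell relative to 8 of the 9 other members, and only its ratio to Ltbp1 did not pass. All 9 ratios share the same Tgfb2 values, so they are not 9 separate tests of its fall. With no pseudocount it was 6 of 9, since the ratios to Tgfb1 and Tgfb3 were then -0.72 and -0.51 with an adjusted p of 0.0714 for both (exact permutation); the 0.5 CPM added is close to the level of Tgfb1 itself. The differences were numerically largest for the SMADs, by a margin well within their spread: the DKO minus WT difference in log2 ratio was -1.14 for Smad2, -1.05 for Smad3 and -0.98 for Smad7 (exact permutation, adjusted p = 0.0238 for each). It was -0.86 for Tgfbr1 and -0.96 for Tgfbr2 (adjusted p = 0.0238 for both, exact permutation) and -0.83 for Tgfbr3 (adjusted p = 0.0306, exact permutation). For Tgfbr3 the DKO and WT ratios overlapped, by DKO replicate 5 only. Leaving out 1 library moved the adjusted p for Tgfbr3 over 0.05 for every WT library but replicate 2 and for every DKO library but replicate 5, to between 0.0643 and 0.0804.

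The other ligands and Ltbp1 were set against Tgfb2 in the same way. Tgfb2 read 4.53, 4.33, 4.50 and 4.54 times the CPM of Tgfb3 in the WT glands, a nearly fixed ratio. In the DKO glands it read 2.72, 1.97, 3.72, 3.41 and 4.48 times the CPM of Tgfb3. Thus 4 DKO glands lay below every WT gland, and DKO replicate 5, the library with the fewest counts (17053747), had the WT ratio. Its log2 ratio was 2.12 ± 0.033 (SD, n = 4) in WT and 1.60 ± 0.44 (SD, n = 5) in DKO, a difference of -0.52 (adjusted p = 0.0357, exact permutation). That call was lost in 8 of the 9 fits without 1 library (adjusted p 0.0603 to 0.0804, all but the one without DKO replicate 5). The log2 ratio of Tgfb2 to Tgfb1 fell from 5.73 ± 0.44 (SD, n = 4) to 4.88 ± 0.31 (SD, n = 5). The difference was -0.84 (adjusted p = 0.0238, exact permutation), with no overlap between the genotypes once 0.5 CPM was added. With no pseudocount the genotypes overlapped: Tgfb2 read 83.7 times the CPM of Tgfb1 in DKO replicate 5 and 67.8 times in WT replicate 4. With 0.5 CPM added, the difference was -0.63 without WT replicate 3 (adjusted p = 0.0804, exact permutation). The count of Tgfb1 in each library was at most 23. Against Ltbp1 the difference was -0.85 (adjusted p = 0.0714, exact permutation). In 4 of the DKO glands Tgfb2 and Ltbp1 had near-equal CPM (1.07 to 1.23 times), where the WT glands had 1.90 to 3.50 times, and DKO replicate 5 again fell in the WT range with 3.49 times. Without that library the difference was -1.16 and passed (adjusted p = 0.0286, exact permutation).

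**Figure D3:**
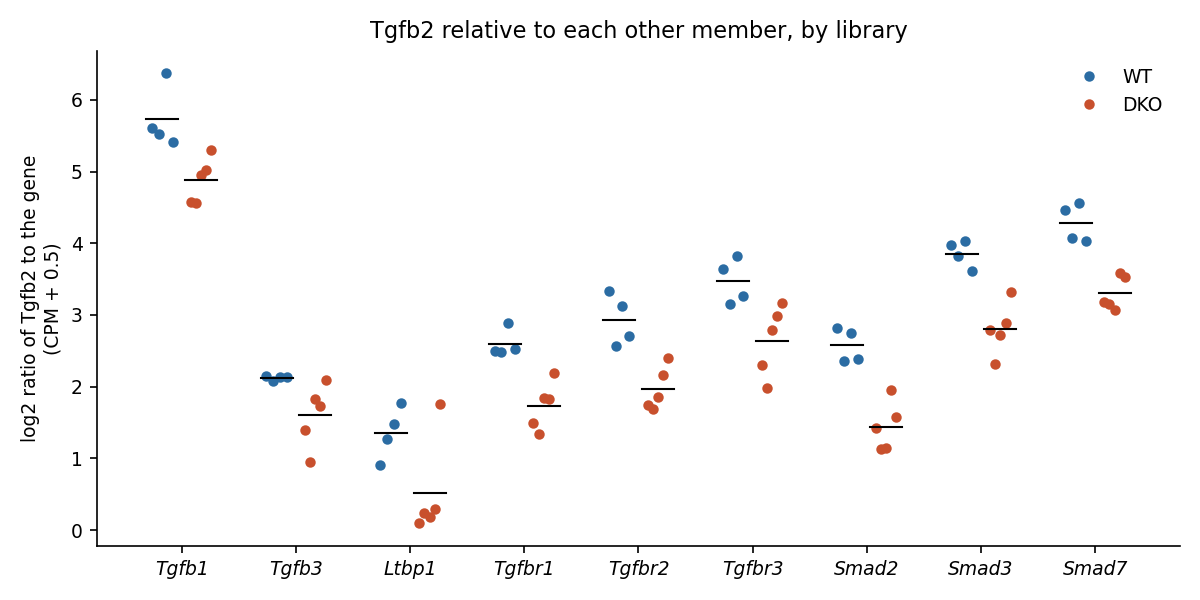
Log2 ratio of Tgfb2 to each of the other 9 genes in each library, on (CPM + 0.5), for WT (blue, n = 4) and DKO (red, n = 5), with black lines at the means. The WT points for Tgfb3 are almost at one height (SD 0.033), and the rightmost DKO point of each column is replicate 5.

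Levels were compared between genes per kilobase of annotated exon. In WT the order was Tgfb2 (11.2 ± 2.003 CPM per kb, SD, n = 4), Tgfb3 (4.29), Ltbp1 (2.42), Tgfbr1 (1.57), Smad2 (1.18), Tgfbr2 (0.983), Tgfbr3 (0.816), Smad3 (0.719), Smad7 (0.626) and Tgfb1 (0.146). The ranges of neighbours in that order did not overlap for Tgfb2 and Tgfb3, Tgfb3 and Ltbp1, Tgfbr1 and Smad2, or Smad7 and Tgfb1, and overlapped for the other 5 pairs. In DKO the order was the same, except that Smad3 (0.735 CPM per kb) and Tgfbr3 (0.708) changed places with overlapping ranges. There, Tgfb2 (5.48 ± 1.12 CPM per kb, SD, n = 5) and Tgfb3 (2.98 ± 0.559) were still separate in all 5 libraries.

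Summed over the 3 ligands, transcripts per length were 16.7, 13.6, 19.0 and 13.3 CPM per kb in the WT glands. They were 7.90, 7.85, 7.83, 10.5 and 8.78 CPM per kb in the DKO glands, so that every DKO gland was below every WT gland. The means were 15.7 ± 2.71 (SD, n = 4) and 8.58 ± 1.16 CPM per kb (SD, n = 5), a ratio of 0.548 (exact permutation p = 0.00794, the smallest possible, two-sided). Tgfb2 made up 70.9% to 72.1% of that sum in WT and 52.8% to 71.6% in DKO, so the fall of the sum is not a result separate from the fall of Tgfb2. The mean share was 71.6% ± 0.495 (SD, n = 4) and 63.6% ± 7.29 (SD, n = 5), a difference of -8.02 percentage points that missed the threshold (exact permutation p = 0.0556). Tgfb3 made up 27.4% ± 0.437 (SD, n = 4) in WT and 35.1% ± 7.15 (SD, n = 5) in DKO (exact permutation p = 0.0714). Tgfb1 made up 0.484% to 1.69% of the sum in all 9 libraries. The 3 receptors summed to 3.37 ± 0.112 CPM per kb in WT and 3.03 ± 0.352 in DKO (SD, n = 4 and 5; exact permutation p = 0.127), and the 3 SMADs to 2.52 ± 0.151 and 2.62 ± 0.253 CPM per kb (exact permutation p = 0.579). Within the receptors and within the SMADs, the share of each gene overlapped between the genotypes.

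**Figure D4:**
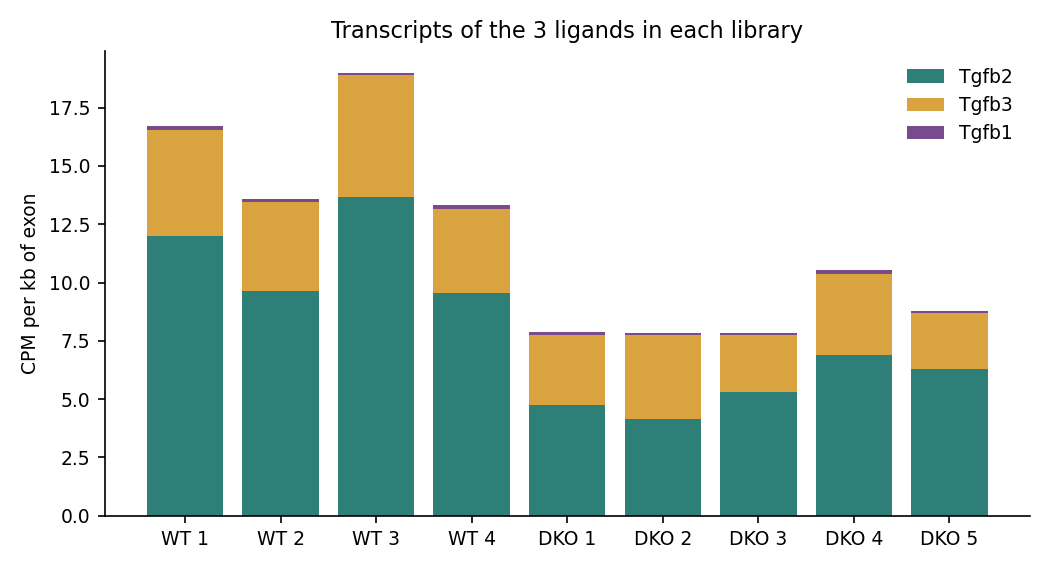
Stacked levels of the 3 ligand transcripts in each library, in CPM per kilobase of exon, with Tgfb2 at the bottom, Tgfb3 above it and Tgfb1 as the thin band on top. Bars reach 13.3 to 19.0 in WT and 7.83 to 10.5 in DKO.

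The genes whose profile over the 9 libraries lay closest to Tgfb2 were found by the root mean square difference between log2 CPM profiles, each centred on its mean. They were Mctp2 (0.12), Trim16 (0.16), Tsc22d1 (0.18), Lrp12 (0.18) and Snap23 (0.18), against a median of 0.61 over 13841 genes. Tsc22d1 encodes a transcription factor first isolated as TGF-β stimulated clone 22. Tgfb3 was the member nearest to Tgfb2, at rank 467 (0.39), followed by Tgfbr1 at rank 1856 (0.50). Ltbp1 was the farthest, at rank 9021 (0.66). This likeness includes the genotype difference, so that genes lower in the DKO come first by construction.

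The wider pathway was described with 99 other genes in 6 lists, of which 85 were tested. Only 3 of the 85 passed in edgeR, all lower in the DKO, against 0.629% of all genes tested; DESeq2 called 12 of them, where it called 4.55% of all genes. The number in edgeR depended on single libraries: it was 8 without WT replicate 2, 10 without DKO replicate 4, and 0 without any one of the other 7.

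Among 18 tested genes that hold or release latent ligand, none passed in edgeR, 8 had an unadjusted p under 0.05 (14.5% of all genes did) and DESeq2 called 4, all lower (2.74% of all genes were lower by that test). The median log2 fold change of this list was -0.34, where that of all genes was 0.01. Thbs1 (thrombospondin 1, an activator of latent TGF-β) had the lowest value, -1.69, from 11.3 ± 2.70 CPM (SD, n = 4) to 3.49 ± 1.96 (SD, n = 5; adjusted p = 0.0506 in edgeR, 2.39e-04 in DESeq2). Ltbp4, a relative of Ltbp1, had the highest at 0.37 (adjusted p = 0.373 in edgeR). Furin, the protease that cleaves the ligand precursors, had the highest CPM, with 113.8 ± 9.94 in WT and 88.6 ± 11.1 in DKO (SD, n = 4 and 5) and no overlap (adjusted p = 0.168 in edgeR). Per kilobase of exon Furin also came first in WT (12.4 CPM per kb), while in DKO Itgb1, an integrin subunit, came first with 11.2 CPM per kb against 9.65 for Furin. Among 9 genes for extracellular binding proteins and co-receptors, Fmod (fibromodulin, a matrix proteoglycan that binds TGF-β) fell by 0.93 on the log2 scale, from 12.9 ± 1.31 to 6.81 ± 1.58 CPM (SD, n = 4 and 5; adjusted p = 0.0478 in edgeR). DESeq2 called 2 of the 9, both lower: Fmod, and Bgn (biglycan, a related proteoglycan), named after its values were seen, at -0.81 with an adjusted p of 0.0382 in DESeq2 and 0.149 in edgeR. Dcn (decorin), the most abundant of them per length, had a log2 fold change of -0.35 and Acvrl1, an endothelial type I receptor, had 0.18, and neither passed.

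No gene passed in edgeR among the activin and GDF branch (10 tested, 1 with an unadjusted p under 0.05), the SMAD partners and regulators (17 tested, 2 unadjusted) or the non-SMAD relays (9 tested, 2 unadjusted). Over all genes tested, 14.5% had an unadjusted p under 0.05. The median log2 fold changes of these 3 lists were 0.09, 0.01 and 0.01. In the activin branch the extremes were Fstl1, an abundant follistatin-like glycoprotein, at -0.84 (adjusted p = 0.0570 in edgeR, 0.00210 in DESeq2, its single call in these 3 lists) and Gdf15, a stress-induced ligand, at 1.04 with an SE of 0.70. In the SMAD list they were Smad1, of the BMP branch, at -0.35 and Trim33, a SMAD4 ubiquitin ligase, at 0.50, and Usp4, a deubiquitinase of the type I receptor, was the most abundant per length, at 105.9 CPM in WT and 114.8 in DKO. In the non-SMAD list they were Tgfb1i1 (Hic-5), an adaptor at focal adhesions, at -0.70 and Tab1, the activator of the kinase TAK1, at 0.31, with the GTPase Rhoa the most abundant per length; none of the 6 genes named from these 2 lists passed in either edgeR or DESeq2.

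Of 22 tested genes known as targets of TGF-β, 2 passed in edgeR and 5 in DESeq2, all lower, and 11 had an unadjusted p under 0.05. Over all genes tested, 0.462% passed as lower in edgeR, 2.74% passed as lower in DESeq2 and 14.5% had an unadjusted p under 0.05. The median log2 fold change was -0.59, and 20 of the 22 values were below 0. Tagln (transgelin, an actin-binding protein) fell by 1.47 on the log2 scale, from 100.2 ± 28.3 to 36.1 ± 12.3 CPM, and Postn (periostin, a matrix protein) fell by 1.24, from 13.6 ± 4.13 to 5.73 ± 1.49 CPM (SD, n = 4 and 5; adjusted p = 0.0478 in edgeR for both). Acta2 (smooth muscle actin), the most abundant per length, had -1.07 (adjusted p = 0.0506 in edgeR, 3.14e-04 in DESeq2), and Junb had the highest value at 0.31 (adjusted p = 0.446 in edgeR). Several of these genes mark cell types: Acta2, Tagln and Cnn1 are also on the myoepithelial marker list, and Col1a1, Col1a2 and Col3a1 are fibroblast genes. Postn is not on that marker list, but the paper places its expression in myoepithelial cells and basal ducts.

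**Figure D5:**
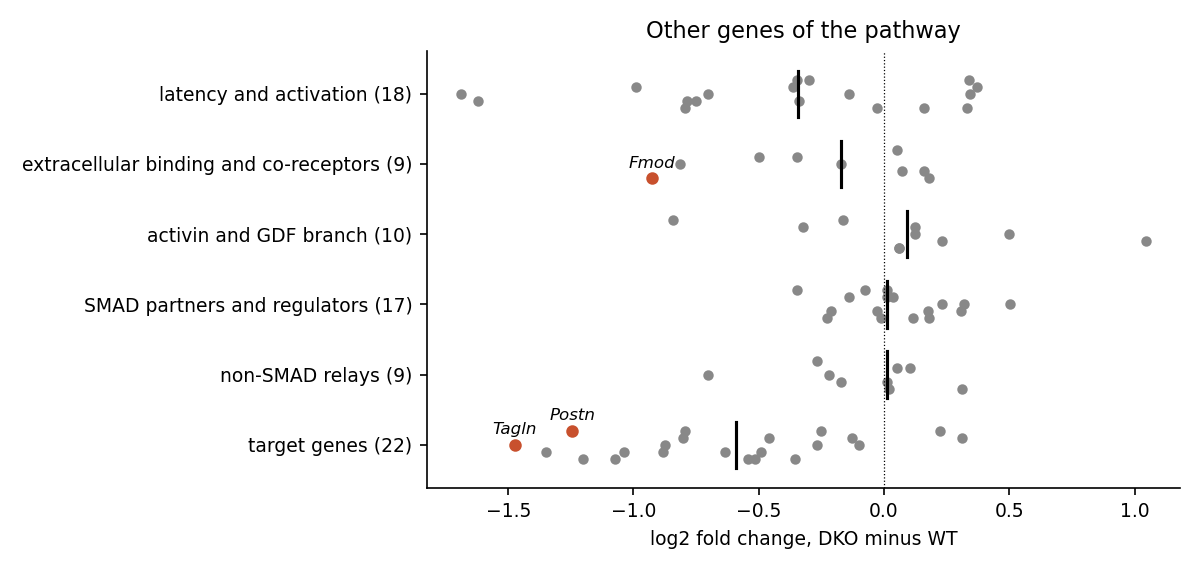
Log2 fold change, DKO minus WT, of each tested gene of the 6 lists of other pathway genes, one row per list with the number tested in brackets. Red points with names have an adjusted p under 0.05 in edgeR (Fmod, Postn and Tagln), grey points do not, and black bars are list medians, which run from -0.59 for the target genes to 0.09 for the activin and GDF branch.

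Markers of several cell types moved with the genotype. The 9 myoepithelial markers summed to 637.2 to 1024 CPM in WT and 247.9 to 574.9 CPM in DKO without overlap; 4 of the 9 passed in edgeR and 7 in DESeq2, all lower, against 0.462% and 2.74% of all genes. None of the 9 was at 0 in all libraries, and Trp63, a defining basal marker, had 4.91 and 4.49 CPM. The 8 granular duct markers summed to 22890 to 60770 CPM in WT and 2337 to 17670 CPM in DKO. All 8 were lower without overlap, as were 3.51% of all genes; DESeq2 called 8 of 8 and edgeR none, with 8 at an unadjusted p under 0.05. The 6 acinar markers summed to 197800 to 294600 CPM in WT and 307600 to 546900 CPM in DKO, with 3 called higher in DESeq2, none in edgeR and 4 at an unadjusted p under 0.05. Over all genes, DESeq2 called 245 of 13563 as higher, and 14.5% had an unadjusted p under 0.05 in edgeR. The 7 fibroblast markers, with 231.7 to 367.4 CPM in WT and 74.6 to 270.6 CPM in DKO, and the 6 macrophage markers, with 93.3 to 132.3 and 70.5 to 122.3 CPM, overlapped and held no call in edgeR or DESeq2, with 4 and 1 genes at an unadjusted p under 0.05. The 7 markers of other ducts summed to 303.5 to 341.8 CPM in WT and 253.1 to 297.0 CPM in DKO, with 2 called lower in DESeq2 and none in edgeR, where 2 had an unadjusted p under 0.05. Krt7 made up most of that sum, with means of 228.3 CPM in WT and 165.1 CPM in DKO. The log2 fold change was above 0 for 3 of the 7 and below 0 for 4, with a median of -0.20. Sums of endothelial, mural, lymphocyte, adipocyte, skeletal muscle and Schwann cell markers overlapped, and 1 gene on those lists, the skeletal muscle actin Acta1, was called (lower). Tagln is itself 1 of the 9 genes in the myoepithelial sum. The part of cell composition in the differences of Tgfb2, Fmod, Postn and Tagln was not tested.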

How the data were processed

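RNA from male SMGs was made into unstranded Nextera XT libraries and sequenced on a HiSeq2500. The authors deposited raw counts per Ensembl gene, a filtered count table, and a table of CPM after TMM scaling. The deposited CPM table, a signal scaled by the authors to library size, gave whole reads back for all 158058 values (within 1e-06). The submitters' processing notes name STAR 2.5.2a, DESeq2, edgeR and limma, and the builds GRCh38, GRCm38 and mm10; the counting tool is not given in the sources used here. Rows that name no gene held under 0.001% of counts. The levels and tests used the raw counts: edgeR 4.0.16 (filterByExpr with a minimum count of 10, TMM, legacy quasi-likelihood fit, adjusted p under 0.05), with DESeq2 1.42.0 and limma-voom 3.58.1 as alternatives. The scripts were tested on simulated data. Exon lengths, overlaps and positions came from GENCODE on GRCm38. Single values were tested by exact permutation over the libraries. The members, lists and named-gene rule (genes that passed, and the lowest, highest and most abundant of each list) were chosen with earlier results of these data known. Replicate numbers were not used as a block. Library-to-library correlations were 0.948 to 0.986, and no library was a copy of another.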

Additional observations from a re-analysis of the deposited data

How the results depend on the processing

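Fold changes and counts of calls were recomputed under 17 other settings, libraries left out included, and 1 chosen after seeing the data (the newer edgeR 4 quasi-likelihood fit, with 116 genes called and Tgfb2 at -1.04). The number of genes called, 87 with edgeR, was 617 with DESeq2, 148 with limma-voom, 347 without a filter on low counts, 357 with library totals alone, 2 with library totals without the 20 most abundant genes (1992 at an unadjusted p under 0.05), and 0 to 441 when 1 library was left out, where 1348 to 2319 genes had an unadjusted p under 0.05. Pathway genes called numbered 12, 7, 9, 10 and 0 under those 5 settings, 5 with edgeR 4 and 0 to 10 without 1 library. Members called numbered 0 without the 20 most abundant genes and 0 to 1 without 1 library. Tgfb2 had -1.32 (adjusted p = 0.0283 in edgeR) with library totals alone. It had -0.99 (adjusted p = 0.0591 in edgeR) without the 20 most abundant genes and -1.14 to -0.93 without 1 library. The 20 most abundant genes of each library held 52.9% to 58.7% of its counts in WT and 59.4% to 70.3% in DKO.

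The ratios and the share were recomputed without each library and with other pseudocounts or lengths. With no pseudocount, the difference in the log2 ratio of Tgfb2 was -0.72 to Tgfb1 and -0.51 to Tgfb3, with an adjusted p of 0.0714 for both by exact permutation. Without 1 library these differences were -0.95 to -0.63 and -0.65 to -0.36, and that in the Tgfb2 share was -10.03 to -5.32 percentage points, passing without DKO replicate 5 (p = 0.0286, exact permutation). The share was 79.8% in WT and 73.0% in DKO per coding length. Of 162 values for the 9 other members, 154 kept their sign and their side of the threshold. The sign turned for Ltbp1 without WT replicate 1 (0.06), without DKO replicate 5 (0.03) and in the replicate block fit (0.065), for Smad2 (-0.20) and Smad3 (-0.25) with library totals alone, for Smad3 without WT replicate 2 (-0.02) or DKO replicate 4 (-0.05), and for Smad7 without DKO replicate 2 (0.0078). Without 1 library, the values ran from -0.33 to 0.061 for Ltbp1, from -0.049 to 0.11 for Smad3, from -0.12 to 0.0078 for Smad7, from 0.04 to 0.17 for Smad2, from -0.17 to -0.02 for Tgfbr2, from -0.24 to -0.09 for Tgfbr1 and from -0.48 to -0.16 for Tgfb1, with no call in any of them. The cause of these changes was not tested.

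Libraries with the same replicate number deviated together with correlations of 0.213, 0.347, 0.102 and 0.0118, so the replicate numbers were not taken as pairs. The sample titles hold other numbers, whose meaning the labels do not give and whose order in the DKO differs from the replicate order. A grouping by those title numbers was not tested, and the correlations and the block fit do not cover it. In a fit with the replicate number as a block (replicates 1 to 4), 0 genes, 0 members and 0 pathway genes were called by edgeR, with 2024 genes at an unadjusted p under 0.05, and Tgfb2 had -1.10 (adjusted p = 0.0824). The paired ratio differences were -0.95 to Tgfb1 and -0.65 to Tgfb3 (exact sign-flip p = 0.125, the smallest that 4 pairs allow). Depth limits Tgfb1 most, with 6 to 23 counts per library.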
